A study of Mus musculus with 11 samples.

Results

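The 10 genes described here belong to the cytotoxic programme of lymphocytes, measured in mouse kidney. They are the granzymes Gzma, Gzmb, Gzmk and Gzmm, the pore protein Prf1, the granule proteins Nkg7 and Cst7, the cytokine Ifng and the transcription factors Tbx21 and Eomes. They were chosen by name for this role, and all 10 were found among the 25677 genes of the count table. The libraries came from kidneys of 3 female C57BL/6J mice (Ctr), 4 untreated female MRL/lpr mice (Lpr) and 4 female MRL/lpr mice given daily intraperitoneal DNase I from week 17 (DNase), all aged 21 weeks, with 1 library per mouse. MRL/lpr mice carry the lpr mutation of Fas in every cell and develop lupus-like nephritis, and both Lpr and DNase mice carry it. Strain and disease cannot be told apart in a comparison with Ctr, since the controls are of another strain, and no vehicle is stated for the untreated mice. The enzyme DNase I degrades extracellular DNA, and the study asked what it does to the nephritis of these mice.

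Cytotoxic T cells and natural killer (NK) cells kill by releasing granules at the contact with a target cell. Perforin opens the target membrane, and granzymes, which are serine proteases, enter through it and cut proteins inside. The T-box factors T-bet, encoded by Tbx21, and Eomesodermin, encoded by Eomes, switch on this programme together with interferon-gamma, the product of Ifng. In whole kidney, fewer cells of a type and less RNA per cell cannot be told apart.

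The promoters of 3 granzymes are shown because the mix of these granzymes differed between the kidneys. Each run is the 250 bases before the RefSeq start site on GRCm38.p6, the mouse build also called mm10, written 5′ to 3′ on the strand of the gene, which is the minus strand for all 3. Gzma (ENSMUSG00000023132) and Gzmk (ENSMUSG00000042385) lie 70626 bases apart on chromosome 13 and Gzmb (ENSMUSG00000015437) on chromosome 14. The windows shown are chr13:113100982-113101231 for Gzma, chr14:56262335-56262584 for Gzmb and chr13:113180966-113181215 for Gzmk. Capitals mark matches to the T-box letters GGTGTGA, the Runx letters TGTGGTT and the AP-1 letters TGANTCA, searched on both strands.
Gzma: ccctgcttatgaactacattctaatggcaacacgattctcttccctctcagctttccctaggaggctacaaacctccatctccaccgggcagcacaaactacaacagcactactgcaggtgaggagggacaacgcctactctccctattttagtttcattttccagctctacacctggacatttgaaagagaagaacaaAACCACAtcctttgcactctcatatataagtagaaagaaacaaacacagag
Gzmb: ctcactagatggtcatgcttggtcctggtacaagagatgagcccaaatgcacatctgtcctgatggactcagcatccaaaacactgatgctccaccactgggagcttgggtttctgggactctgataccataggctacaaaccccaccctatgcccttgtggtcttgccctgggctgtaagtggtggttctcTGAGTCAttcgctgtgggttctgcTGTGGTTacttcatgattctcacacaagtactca
Gzmk: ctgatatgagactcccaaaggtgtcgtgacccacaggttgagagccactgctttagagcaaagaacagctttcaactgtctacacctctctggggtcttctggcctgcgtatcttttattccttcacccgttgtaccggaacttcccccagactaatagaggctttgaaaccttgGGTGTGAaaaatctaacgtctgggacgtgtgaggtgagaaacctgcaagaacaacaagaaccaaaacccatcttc
The match in the Gzma promoter is a Runx match on the other strand, and its first printed base lies 51 bases before the start site. The Gzmb promoter held an AP-1 match at 58 and a Runx match at 34 bases before the start site, and the Gzmk promoter a T-box match at 75 bases. T-box letters stood in 3 of 11 member promoters (Gzmm has 2 annotated starts) and in 3.33% of 32851 mouse promoters of the same length. Runx letters stood in 2 of 11 and in 4.4% of all, and AP-1 letters in 1 of 11 and in 6.75% of all. The member promoters with a T-box match were those of Gzmk, Gzmm and Nkg7. These matches describe the letters and were not tested as binding sites.

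Libraries held between 33469858 and 38460873 counts, and values are given as CPM, in which each count is divided by the TMM-scaled size of its library. In Lpr replicate 3, long genes had relatively few counts, with a fitted slope of -0.393 on the log2 scale for each doubling in length, while the other 10 kidneys had slopes of -0.0433 to 0.0775. Fas lay at 5.72 to 8.67 CPM in the MRL/lpr kidneys and at 6.00 to 7.84 CPM in Ctr, so its level does not check the genotype. The 7 markers of tubules and podocytes summed to 14198 to 15344 CPM in Ctr, to 9485 to 13430 in Lpr, below all Ctr kidneys, and to 11851 to 15247 in DNase, and none was called in any comparison. Genes were tested with edgeR's quasi-likelihood test, pair by pair. Genes were called where the absolute log2 fold change exceeded 2 and the p-value, adjusted by Benjamini-Hochberg over all genes tested, was under 0.05.

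Compared with Ctr, 9 of the 10 cytotoxic genes were called higher in Lpr kidneys, and Gzmm was not. Of all 16074 genes tested, 4.65% were called higher. The 9 genes rose by 2.68 to 5.41 on the log2 scale, with Gzmk and Gzmb at the top and Tbx21 at the bottom. For the same 9 genes every Lpr kidney lay above every Ctr kidney, a separation seen in 14.4% of all genes. The median log2 fold change of the 10 members was 4.05, beside 0.03 over all genes tested. In Ctr the members had 1 to 42 counts per kidney. All 10 passed the filter on low counts, but 9 of them, all but Nkg7, reached its cutoff in fewer than 3 Ctr kidneys and so passed through the group where they were high. These had to be high in Lpr to be tested, and their count and median are given as a description. With no filter on low counts, the same 9 members were called.

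**Figure D1:**
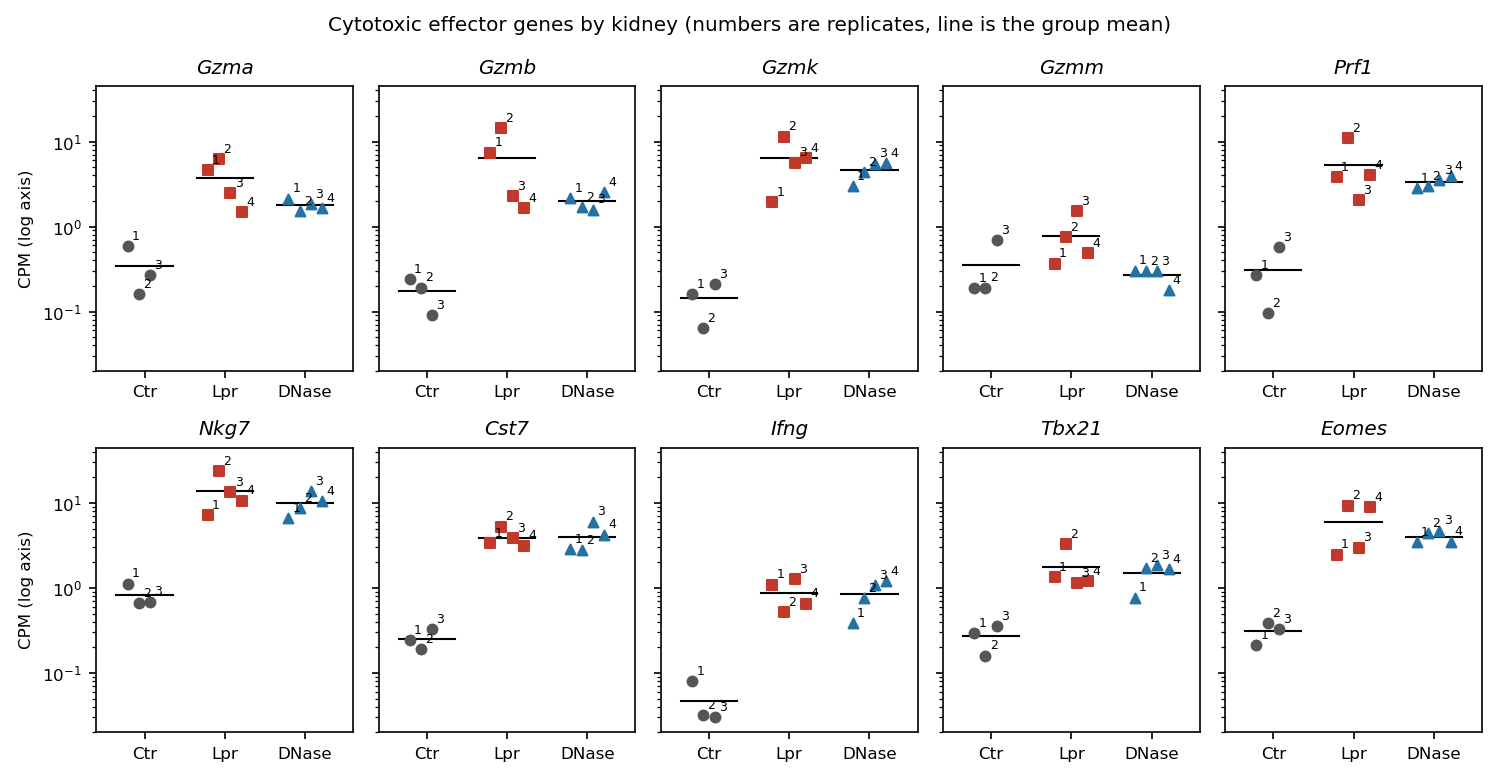
CPM of each gene (log axis) in the 3 Ctr, 4 Lpr and 4 DNase kidneys, with the replicate number beside each point and a line at the group mean. Apart from Gzmm, all Lpr and DNase kidneys lie above all Ctr kidneys, and Lpr replicate 2 is the highest of the 8 MRL/lpr kidneys for 7 of the 10 genes.

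Gzma encodes granzyme A, a protease that cuts after basic residues. It was measured at 0.590, 0.160 and 0.270 CPM in the Ctr kidneys, at 4.64, 6.24, 2.47 and 1.48 CPM in Lpr replicates 1 to 4, and at 2.12, 1.52, 1.83 and 1.65 CPM in DNase replicates 1 to 4. Lpr replicates 1 and 2 were the high kidneys, Lpr replicate 4 lay below all DNase kidneys, and no Ctr kidney reached the others. The log2 fold change was 3.42 (SE 0.663, edgeR adjusted p = 0.0124) between Lpr and Ctr and 2.36 (adjusted p = 0.00318) between DNase and Ctr.

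Gzmb encodes granzyme B, which cuts after aspartate and activates caspases. Its levels were 0.242, 0.192 and 0.0899 CPM in Ctr, 7.40, 14.2, 2.26 and 1.65 CPM in Lpr, and 2.15, 1.69, 1.58 and 2.55 CPM in DNase. As for Gzma, Lpr replicates 1 and 2 were high, while Lpr replicates 3 and 4 lay inside the range of the DNase kidneys. It rose by 5.17 log2 units in Lpr (SE 0.937, edgeR adjusted p = 0.00918) and by 3.48 in DNase (adjusted p = 0.000219) over Ctr. Without Lpr replicate 2 the rise in Lpr was 4.39.

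Gzmk encodes granzyme K, a tryptase typical of memory-like CD8 T cells. It lay at 0.161, 0.0638 and 0.210 CPM in Ctr, at 1.94, 11.5, 5.66 and 6.32 CPM in Lpr, and at 3.01, 4.38, 5.50 and 5.58 CPM in DNase. Lpr replicate 1, high for Gzma and Gzmb, was the lowest MRL/lpr kidney for Gzmk. The log2 fold change of Gzmk was 5.41 (SE 0.732, edgeR adjusted p = 0.00241) in Lpr and 4.95 (adjusted p = 4.1e-05) in DNase over Ctr.

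Gzmm encodes granzyme M, known from NK cells. It was low everywhere, with 0.188, 0.192 and 0.690 CPM in Ctr, 0.366, 0.757, 1.50 and 0.484 CPM in Lpr, and 0.303, 0.299, 0.301 and 0.180 CPM in DNase, from 6 to 50 counts per kidney. The Lpr and Ctr kidneys overlapped, and Ctr replicate 3 lay above all DNase kidneys. The log2 fold change was 1.12 between Lpr and Ctr (95% interval -0.42 to 2.66, edgeR adjusted p = 0.406) and -0.39 between DNase and Ctr (-1.61 to 0.83, adjusted p = 0.675). Without Ctr replicate 3 these were 2.01 and 0.50, and without Lpr replicate 3 the first was 0.59.

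Prf1 encodes perforin. Its levels were 0.268, 0.0958 and 0.570 CPM in Ctr, 3.83, 11.1, 2.05 and 4.01 CPM in Lpr, and 2.81, 2.96, 3.51 and 3.94 CPM in DNase. Lpr replicate 2 stood more than 2-fold above every other kidney, and Lpr replicate 3 was the lowest of the 8 MRL/lpr kidneys. That kidney had few counts on long genes, Prf1 has a length of 2667 bases, and the part of length in this value was not tested. Prf1 rose by 4.06 log2 units in Lpr (SE 0.775, edgeR adjusted p = 0.0117) and by 3.39 in DNase (adjusted p = 0.000674).

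Nkg7, a membrane protein of cytotoxic granules, lay at 1.13, 0.670 and 0.690 CPM in Ctr, at 7.17, 23.6, 13.4 and 10.6 CPM in Lpr, and at 6.59, 8.64, 13.8 and 10.6 CPM in DNase. Lpr replicate 2 was again the highest kidney, and the other Lpr kidneys lay within the DNase range. The log2 fold change over Ctr was 4.04 in Lpr (SE 0.485, edgeR adjusted p = 0.00148) and 3.57 in DNase (adjusted p = 7.06e-05). Cst7 encodes cystatin F, an inhibitor of the cathepsins that process granzymes. It measured 0.242, 0.192 and 0.330 CPM in Ctr, 3.38, 5.27, 3.88 and 3.16 CPM in Lpr, and 2.90, 2.80, 6.05 and 4.24 CPM in DNase. For Cst7 the highest kidney was DNase replicate 3, and the change over Ctr was 3.93 in Lpr (SE 0.381, edgeR adjusted p = 0.000651) and 3.96 in DNase (adjusted p = 0.000127).

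Ifng encodes interferon-gamma. It was read 3, 1 and 1 times in the Ctr kidneys, 39, 20, 42 and 23 times in Lpr, and 14, 28, 43 and 47 times in DNase. Every MRL/lpr kidney lay above every Ctr kidney, and Lpr replicate 2, high for 7 other members, was the lowest Lpr kidney. Summed over kidneys and scaled to library size, Ifng was 17.8-fold higher in Lpr than in Ctr (95% counting interval 7.41 to 55.7), from 124 against 5 counts, and 17.7-fold higher in DNase (7.41 to 55.5), from 132 against 5. These intervals cover counting error only. The fitted log2 fold changes of 4.09 in Lpr (edgeR adjusted p = 0.00391) and 4.05 in DNase (adjusted p = 0.00144) depend on the prior count at so few reads. With Ifng set at the lower limit of its interval, the member median was 3.99 in place of 4.05 for Lpr and 3.44 in place of 3.52 for DNase.

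Tbx21 encodes T-bet. Its levels were 0.295, 0.160 and 0.360 CPM in Ctr, 1.35, 3.31, 1.14 and 1.20 CPM in Lpr, and 0.772, 1.71, 1.86 and 1.67 CPM in DNase. Lpr replicate 2 stood apart from the other 3 Lpr kidneys, which lay within the DNase range. Tbx21 rose by 2.68 log2 units in Lpr (SE 0.561, edgeR adjusted p = 0.0178) and by 2.45 in DNase (adjusted p = 0.00321). Eomes lay at 0.215, 0.383 and 0.330 CPM in Ctr, at 2.48, 9.29, 2.98 and 8.94 CPM in Lpr, and at 3.48, 4.40, 4.72 and 3.52 CPM in DNase. Lpr replicates 2 and 4 lay above all DNase kidneys and Lpr replicates 1 and 3 below them. Tbx21 and Eomes have lengths of 2552 and 3718 bases. As for Prf1, the part of length in their values of Lpr replicate 3 was not tested. Eomes rose by 4.26 log2 units in Lpr (SE 0.639, edgeR adjusted p = 0.00389) and by 3.71 in DNase (adjusted p = 2.9e-05).

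The calls of Gzma, Prf1 and Tbx21 between Lpr and Ctr depended on single Ctr kidneys. Without Ctr replicate 1 the edgeR adjusted p was 0.0664 for Prf1 and 0.0809 for Tbx21, without Ctr replicate 2 it was 0.0559 for Gzma and 0.0806 for Tbx21, and without Ctr replicate 3 it was 0.063 for Gzma and 0.0561 for Tbx21. Thus 7 members were called with any 1 Ctr kidney left out, but not the same 7. Without Ctr replicate 1 they held Gzma and not Prf1, and without Ctr replicate 2 or 3 Prf1 and not Gzma. Gzmb, Gzmk, Nkg7, Cst7, Ifng and Eomes were called in each case. With any 1 Lpr kidney left out, 9 members were called.

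Between DNase and Ctr, 9 of the 10 genes were again called higher, and the same 9 did not overlap. Over all 16100 genes tested, 4.56% were called higher and 18% did not overlap with DNase higher. The member median was 3.52, beside 0.00 over all genes. Here too 9 members, all but Nkg7, passed the filter on low counts through the DNase group. Their count and median are again given as a description. This comparison shares its Ctr kidneys with the one above, so both sets of calls are not independent of each other.

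**Figure D2:**
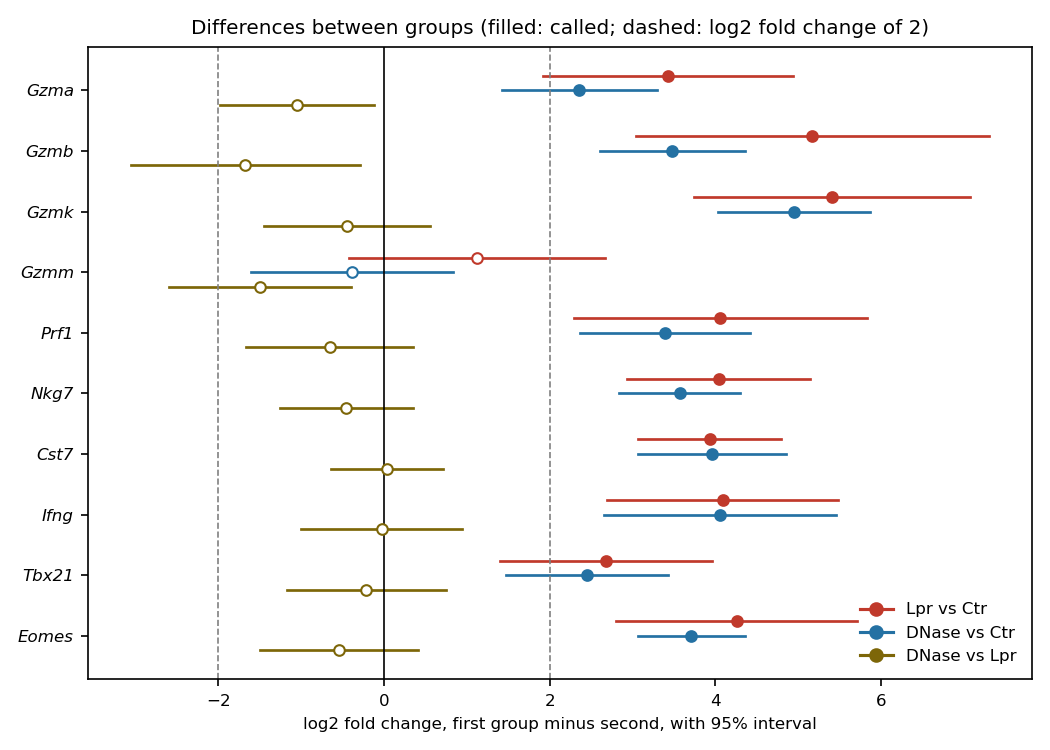
Log2 fold change of each gene (x axis, first group minus second) with its 95% interval in the 3 comparisons, with filled points for called genes and dashed lines at a log2 fold change of 2 in either direction. The intervals of Lpr vs Ctr and DNase vs Ctr lie above 0 for all genes but Gzmm, and those of DNase vs Lpr lie below 0 for Gzma, Gzmb and Gzmm, none of which passed the adjusted threshold.

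Whether DNase I moved these genes was asked by comparing DNase with Lpr. By edgeR no member was called, and of all 15832 genes tested 0% were called. By DESeq2, too, no member was called, while 5 of 24922 genes were. At an unadjusted p under 0.05, 3 of 10 members differed by edgeR and by DESeq2, beside 5.6% of all genes by edgeR. By limma, on log2(FPKM + 1) and on log2(FPKM + 0.1), 0 of the 9 members tested did, and Gzmm was not tested there. The 3 members that differed by edgeR and DESeq2 were granzymes. Gzma was 1.05 log2 units lower in DNase (95% interval -1.98 to -0.12, edgeR adjusted p = 0.854), Gzmb 1.67 lower (-3.05 to -0.30, edgeR adjusted p = 0.844) and Gzmm 1.50 lower (-2.60 to -0.40, edgeR adjusted p = 0.82). Gzmm was the 1 member whose groups did not overlap, which 3.79% of all genes showed in either direction. The highest DNase kidney had 0.303 CPM and the lowest Lpr kidney 0.366 CPM of Gzmm, from 11 and 13 counts.

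The log2 fold change of the other members in DNase against Lpr was -0.45 for Gzmk, -0.66 for Prf1, -0.46 for Nkg7, -0.55 for Eomes, -0.22 for Tbx21, -0.03 for Ifng and 0.04 for Cst7. Their 95% intervals all included 0 and reached from -1.67 at the lowest, for Prf1, to 0.94 at the highest, for Ifng. Thus 9 of 10 values were below 0, where 52.9% of all genes were, with a median of -0.50 beside -0.02. Without Lpr replicate 2 the member median was -0.15, 7 of 10 values were below 0, 1 member had an unadjusted p under 0.05, and Gzmk moved to -0.01 and Gzmb to -0.92. Without it, Prf1 stood at 0.00 and Tbx21 at 0.29. Without Lpr replicate 3 the count at p under 0.05 was 4, the member median -0.64 and Gzmm -0.98. Without Lpr replicate 1 the median was -0.77, and without DNase replicate 2 or DNase replicate 3 the count at p under 0.05 was 1. The summed T cell markers of Lpr replicate 2 were the highest of all kidneys, at 208 CPM.

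Lpr replicate 2 had the highest CPM of the 8 MRL/lpr kidneys for Gzma, Gzmb, Gzmk, Prf1, Nkg7, Tbx21 and Eomes. Over all genes it was the highest in 16.6%. Of the other members, Gzmm and Ifng were highest in Lpr replicate 3 and Cst7 in DNase replicate 3. Gzmm and Ifng have lengths of 1472 and 1210 bases, and the part of length in their values of Lpr replicate 3 was not tested. Over all genes, Lpr replicate 3 was the highest in 32.2% and DNase replicate 3 in 5.59%. The coefficient of variation was larger in Lpr than in DNase for 8 of the 10 members, and for 84.2% of all genes.

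Levels of different genes were compared in FPKM, which divides by gene length. Nkg7 stood first in every group, with 0.987 ± 0.320 FPKM in Ctr (SD, n = 3), 16.8 ± 9.12 in Lpr (SD, n = 4) and 12.6 ± 3.91 in DNase (SD, n = 4). In DNase it was followed by Gzmk at 4.31 ± 1.10 and Cst7 at 4.19 ± 1.60, whose ranges overlapped, and then by Gzma at 2.09 ± 0.322, above the range of Gzmb at 1.36 ± 0.286. Prf1 at 1.28 ± 0.184 and Eomes at 1.12 ± 0.183 overlapped with Gzmb. Ifng at 0.731 ± 0.307 and Tbx21 at 0.608 ± 0.199 overlapped with each other, and Gzmm was last at 0.191 ± 0.0447, below the range of all other members.

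In Lpr the order after Nkg7 was Gzmk at 5.76 ± 3.72 FPKM, Gzmb at 4.27 ± 4.01, Gzma at 4.21 ± 2.54 and Cst7 at 3.96 ± 1.05, 4 genes whose ranges overlapped, and the highest kidneys of Gzmk and Gzmb exceeded the lowest of Nkg7. Prf1 at 1.99 ± 1.57, Eomes at 1.61 ± 1.06, Ifng at 0.716 ± 0.254, Tbx21 at 0.690 ± 0.435 and Gzmm at 0.514 ± 0.309 followed, and each of these overlapped with its neighbour. In Ctr, Gzma was second at 0.375 ± 0.251 FPKM and Gzmm came after Cst7, at 0.236 ± 0.195 and 0.250 ± 0.0742. Ctr levels from Gzmk downward were between 0.038 and 0.128 FPKM on average and rest on a few reads each.

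The 4 granzymes summed to 0.464 to 1.08 FPKM in Ctr, 9.08 to 28.2 in Lpr and 7.05 to 8.83 in DNase, so the closest Lpr and DNase kidneys were at 9.08 and 8.83. In CPM the groups overlapped in this sum, with 9.93 in Lpr replicate 4 and 9.96 in DNase replicate 4. Their mix varied among Lpr kidneys. Gzmk made up 14.4% of the sum in Lpr replicate 1 and 64.9% in Lpr replicate 4, and 40.3% to 59.9% in the DNase kidneys. Gzmb made up 12.4% to 40.2% in Lpr and 12.6% to 21.0% in DNase. The ratio of Gzmb to Gzmk in FPKM was 2.78, 0.908, 0.291 and 0.191 in Lpr replicates 1 to 4, and 0.210 to 0.522 in DNase. Gzmm took 11.6% to 45.7% of the small Ctr sum, 1.88% to 9.79% in Lpr and 1.40% to 3.05% in DNase. A ratio of this kind says that the genes changed unequally, not which of them changed. The ratio of Eomes to Tbx21 in FPKM was 1.26, 1.92, 1.79 and 5.13 in Lpr replicates 1 to 4, 1.45 to 3.09 in DNase and 0.499 to 1.65 in Ctr. The part of length in the ratio of Lpr replicate 3 was not tested.

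**Figure D3:**
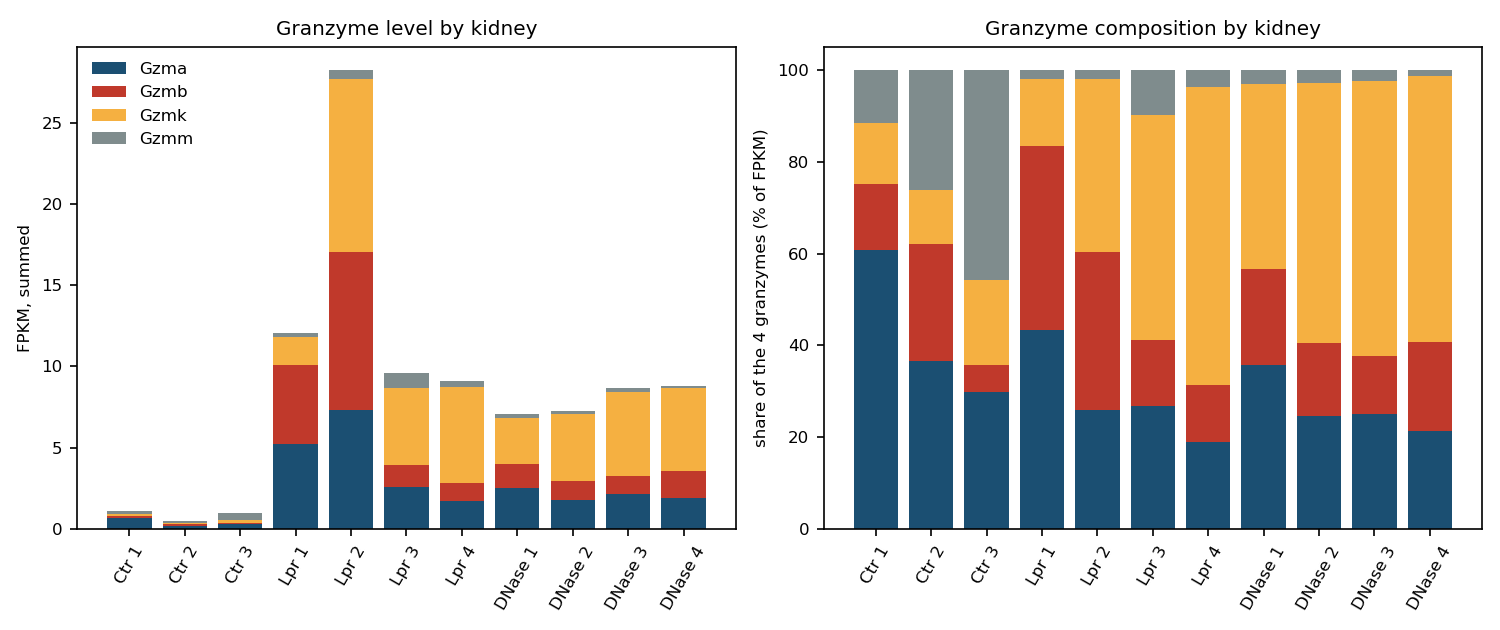
FPKM of Gzma, Gzmb, Gzmk and Gzmm stacked for each kidney (left) and as percent of their sum (right). The 4 Lpr kidneys sum to between 9.08 and 28.2 FPKM and the 4 DNase kidneys to between 7.05 and 8.83, and the Gzmk share runs from 14.4% to 64.9% among Lpr kidneys.

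T cell markers moved with the cytotoxic genes. The 11 markers, among them Cd3e, Cd4 and Cd8a, summed to 6.38 to 10.2 CPM in Ctr, 92.2 to 208 in Lpr and 94.4 to 154 in DNase, with 11 of 11 called higher in Lpr and 10 of 11 in DNase over Ctr. Cd3e was 3.99 log2 units higher in Lpr than in Ctr. Against Lpr, none of the 11 was called in DNase, and their median was -0.20. The Cd8a and Cd8b1 share of the Cd4, Cd8a and Cd8b1 counts was 80.9% in Lpr replicate 3 and at most 72.5% in the other 10 kidneys. The sum of the NK cell markers overlapped between the groups. The 6 listed markers summed to 0.192 to 1.13 CPM in Ctr, 0.398 to 1.59 in Lpr and 0.800 to 1.46 in DNase. In each group 1 of the 6 stayed at 3 counts or fewer in every kidney. Ncr1, which encodes NKp46, lay at 0 to 0.161 CPM in Ctr, 0.0522 to 0.675 in Lpr and 0.206 to 0.652 in DNase. Its DNase kidneys lay above all Ctr kidneys, from 8 to 24 against 0 to 6 counts. Of the NK cell markers tested, 0 of 1 were called in Lpr and 0 of 2 in DNase over Ctr. The sum rests on few counts, and whether reads of both strains map equally to these genes was not tested. It therefore says little about the amount of NK cells in any group.

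Other cell types also express members of the granule family. Mast cell markers summed to 55.0 to 150 CPM in Ctr, 63.3 to 101 in Lpr and 65.7 to 139 in DNase, with 0 of 7 called over Ctr in Lpr or in DNase. This sum was mostly Hdc, with means of 62.1, 51.3 and 77.8 CPM in these groups, and Kit, with 26.8, 21.7 and 23.1. Cpa3, Mcpt4, Tpsb2, Cma1 and Ms4a2 each averaged at most 2.31 CPM in any group. The largest log2 fold change over Ctr among the 7 was 1.61 in Lpr and 1.98 in DNase, and 4 of 7 were below 0 in each. Plasmacytoid dendritic cell markers, of interest because these cells can hold Gzmb, summed to 28.5 to 35.3, 26.2 to 47.3 and 39.5 to 45.2 CPM, with 0 of 6 called in Lpr and 1 of 6 in DNase over Ctr, and all DNase kidneys above all Ctr kidneys. Tcf4 made up most of this sum, with means of 29.2, 31.3 and 33.9 CPM, while Siglech averaged at most 0.472 CPM. The sums of these mast cell and dendritic cell lists therefore say little about the amount of either cell type. Macrophage markers rose with the members, from 135 to 172 CPM in Ctr to 590 to 1199 in Lpr and 482 to 919 in DNase, with 5 of 6 called in each. Neutrophil markers lay at 2.70 to 6.44, 8.59 to 33.4 and 7.34 to 18.3 CPM, with 2 of 6 tested called in Lpr and 3 of 6 in DNase, and B cell markers at 1.12 to 5.93, 8.02 to 17.6 and 12.9 to 29.6 CPM, with 1 of 4 called in Lpr and 3 of 5 in DNase. Between DNase and Lpr the B cell markers went the other way from most members, with 5 of 5 above 0, a median of 1.38 and 3 of 5 at an unadjusted p under 0.05, and none was called. The part of these cell types in the member values was not tested.

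Relative to the T cell markers of the same kidney, most members did not separate the groups. Cd8a and Cd4 had the highest means of the 11 markers in Lpr, at 32.2 and 21.9 CPM. The log2 fold changes of the 11 in Lpr over Ctr ran from 2.49 to 5.12, so these ratios depend on the markers summed. The part of other cell types in the marker sum was not tested. Per 1000 T cell marker counts, Nkg7 was counted 74.2 to 110 times in Ctr, 77.8 to 115 in Lpr and 69.8 to 89.8 in DNase. Cst7 was counted 23.6 to 35.5, 25.4 to 36.6 and 23.8 to 39.4 times. For both genes the 3 groups overlapped, although in CPM Nkg7 was 16.4-fold and Cst7 15.3-fold higher in Lpr than in Ctr. Gzma, Gzmb, Gzmk, Prf1, Ifng and Eomes also overlapped between Lpr and Ctr. Gzmm and Tbx21 were lower in Lpr without overlap, with 3.64 to 12.9 against 18.4 to 74.2 counts for Gzmm and 9.83 to 16.0 against 25 to 38.7 for Tbx21. On this scale 95.3% of all genes tested were lower in Lpr without overlap, beside these 2 of the 10 members.

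In DNase, Gzma, Gzmm and Tbx21 were lower per T cell marker count than in Ctr without overlap, where 96.5% of all genes were, and Gzmk was higher, at 31.8 to 43.6 against 10 to 22.6, where 0.528% of all genes were. Gzmm was also lower in DNase, at 1.41 to 3.21, than in Lpr, where 0.448% of all genes were. The ratios in Ctr rest on 200 to 381 T cell marker counts per kidney and on few member counts.

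**Figure D4:**
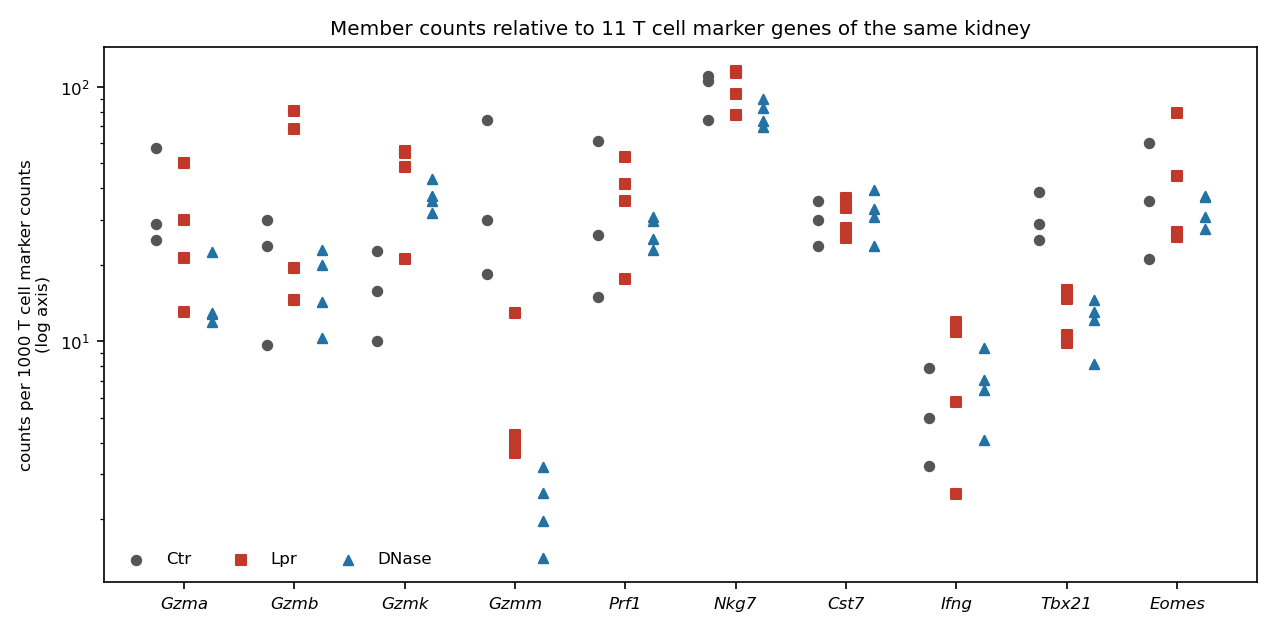
Counts of each gene per 1000 counts of 11 T cell marker genes in the same kidney (log axis), for the 3 Ctr, 4 Lpr and 4 DNase kidneys. Nkg7 and Cst7 overlap in all 3 groups, while Gzmm and Tbx21 lie lower in all MRL/lpr kidneys than in Ctr.

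For each member the gene with the most similar profile was sought among 13259 genes with a mean of at least 1 CPM, by the root-mean-square difference of centred log2 CPM over the 11 kidneys. For Nkg7 it was Cd3g, a subunit of the T cell receptor complex, at 0.23, for Gzmk the T cell surface protein Cd6 at 0.38, and for Eomes the costimulatory receptor Cd28 at 0.38. It was Jaml for Gzma at 0.40, Adam8 for Gzmb at 0.51, Elapor1 for Prf1 at 0.35, Ncf4 for Cst7 at 0.24, Agmat for Ifng at 0.33 and Evi2a for Tbx21 at 0.23. For Gzmm it was Tagln, an actin-binding protein of smooth muscle, at 0.29, and no T cell gene was among the nearest 3, which were Tagln, Tpm2 and Acta2. Among the members themselves Nkg7 and Cst7 were nearest to each other, at 0.37, and Gzmm was 1.19 from its nearest member, Tbx21. The median difference to all candidates lay between 0.88, for Gzmm, and 2.21, for Gzmk.

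Further genes of killing were followed in 5 lists of 79 genes, of which 68 were tested between Lpr and Ctr. Of these, 27 were called higher and none lower, beside the 4.65% of all genes called higher, with a median log2 fold change of 1.90. Some, such as Fasl and Il12rb1, had at most 0.134 and 0.180 CPM in Ctr, below the filter's cutoff of 0.279 CPM. Such genes had to be high in Lpr to be tested, so this count and median are given as a description. With no filter on low counts, 29 genes of the lists were called. The granule cargo and release machinery had 2 of 13 called, Ctsw, a cathepsin of cytotoxic cells, at 3.28 (edgeR adjusted p = 0.00527), and Unc13d, needed for granule fusion, at 2.22 (adjusted p = 0.0206). The granzyme Gzmc was found with at most 2 counts in any kidney and was not tested. Ctsw lay at 0.319 to 0.617 CPM in Ctr, 2.73 to 8.61 in Lpr and 1.88 to 3.96 in DNase.

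Of the death ligands and surface receptors of killer cells, 5 of 10 were called higher in Lpr, with Fasl at 5.16 (edgeR adjusted p = 0.0201) and the activating receptor Klrk1 (NKG2D) at 3.33 (adjusted p = 0.00607). Fasl, the ligand of Fas, was counted 0 to 5 times per Ctr kidney, 24 to 208 times in Lpr and 35 to 52 times in DNase, so its fold change is uncertain. Of the effector and memory transcription factors, 3 of 15 were called, with Batf at 3.63 (adjusted p = 0.00192), Runx3 at 2.87 (adjusted p = 0.0476) and Stat4, which acts downstream of interleukin 12, at 2.12 (adjusted p = 0.0124). Runx3 spanned 2.65 to 17.8 CPM in Lpr and 4.00 to 5.57 in DNase.

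Of the cytokines that induce the programme and their receptors, 7 of 13 were called higher, among them the receptor subunits Il12rb1 at 3.99 (edgeR adjusted p = 0.00502), Il21r at 3.57 (adjusted p = 0.00821) and Il2rb at 3.30 (adjusted p = 0.006). Il2rb lay at 1.45 to 2.04 CPM in Ctr, 8.54 to 34.9 in Lpr and 9.49 to 15.8 in DNase. Of the genes of the interferon-gamma receptor and response, 10 of 17 were called higher. The chemokine Cxcl9 rose by 4.36 log2 units (adjusted p = 0.000713), and the interferon-inducible GTPases Igtp and Gbp2 by 4.30 (adjusted p = 0.00241) and 4.21 (adjusted p = 0.00223). Gbp2 lay at 19.4 to 34.3 CPM in Ctr, at 193 to 870 in Lpr and at 286 to 298 in DNase, so the DNase kidneys were close together inside the wide range of the Lpr kidneys.

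Between DNase and Lpr, 0 of 69 companion genes were called by edgeR, beside 0% of all genes. Below 0 lay 49 log2 fold changes, where 52.9% of all genes were, with a median of -0.22 beside -0.02. An unadjusted p under 0.05 was found for 5 of the 69, and for 5.6% of all genes. The lowest of these unadjusted p-values was that of the chemokine Cxcl10, named after its values were seen, at -1.10 (edgeR adjusted p = 0.82), with 23.7 to 78.8 CPM in Lpr and 21.3 to 26.9 in DNase. Between DNase and Ctr, 28 of 65 were called higher, beside the 4.56% of all genes, with 11 of 17 in the interferon-gamma list and 6 of 9 in the killer cell surface list. Here too, genes low in Ctr had to be high in DNase to be tested, and the counts are a description. With no filter on low counts, 30 were called.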

How the data were processed

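Kidney RNA of 11 mice was sequenced as paired reads with 1 library per mouse, and the mice were grouped by the sample labels. The authors deposited unnormalized counts of reads per gene. They also deposited FPKM, these counts divided by library total and gene length, and the length they imply agreed within 1% in all libraries for 100% of genes. The submitters' processing notes name fastp, HTSeq, DESeq2, R 3.2.0 and mm10. The aligner, the annotation and whether counting used strand are not given in the sources used here. Unused columns numbered 0.

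Counts were tested with edgeR 4.0.16 in R 4.3.3 (filterByExpr, TMM, quasi-likelihood test, the libraries of the 2 groups alone), with DESeq2 1.42.0 and limma 3.58.1 on log2(FPKM + 1) or log2(FPKM + 0.1) for mean FPKM values of 0.5 or more as alternatives. The other alternatives were size factors by RLE, no filter, other fold thresholds, all libraries in 1 fit, a replicate block and leaving out each library. The procedure was tested on simulated data. Replicates differed by more than sampling noise. In pairs with Lpr replicate 3 the chi-square per degree of freedom was 385 to 393. In all other pairs within a group it was 17.5 to 85.7. Positions are from GENCODE M21 on mm10, promoters from RefSeq on GRCm38.p6, and close copies were sought with blastn 2.17.0. Gzmb shared 76.9% identity with Gzmc, and no member but Ifng had a closer copy. Ifng overlaps Gm49751, which the count table did not list, and Eomes overlaps antisense Gm33460 by 118 bases, which had at most 5 counts per kidney. Promoter windows hold 250 bases. Figures were drawn with matplotlib 3.10.9.

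The members, gene lists and tests were chosen with earlier results of these data known. Besides the members, the genes named were the 3 with the largest change per companion list among those called between Lpr and Ctr with a mean of at least 1 CPM, the companion genes called between DNase and Lpr, of which there were 0, the markers Cd3e, Cd4, Cd8a and Ncr1, and the nearest gene to each member. Single mast cell and plasmacytoid dendritic cell markers were named after their values were seen. The depth gives each kidney between 33469858 and 38460873 counts, and a group with no kidney above 3 counts of a gene was treated as at the floor. Results that need 1 withheld item are not reported here.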

Additional observations from a re-analysis of the deposited data

Results flagged for a closer look

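In 2 of 20 groups of 4 kidneys, 1 kidney stood apart from the other 3 by Dixon's 95% criterion for the gap as a share of the range, and chance alone gives about 1 in 20. Gzmm in DNase replicate 4 lay at 0.180 CPM, with a gap of 0.964 of the range, from 7 counts where the other DNase kidneys had 11 or 12. Tbx21 in Lpr replicate 2 lay at 3.31 CPM, with a gap of 0.905 of the range. Lpr replicate 2 was also the kidney with the highest summed T cell markers.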

How the results depend on the processing

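On log2(FPKM + 1), limma called 2 of 7 members and 12 companion genes between Lpr and Ctr, and 3 of 7 members and 11 companion genes between DNase and Ctr. On log2(FPKM + 0.1) it called 7 of 7 members in both, and 17 and 18 companion genes. The filter on FPKM left 7 members there, without Gzmm, Ifng and Tbx21, and the larger pseudocount shrinks the changes of low genes. With no fold threshold, 47 companion genes were called between DNase and Ctr. DESeq2, RLE scaling, no filter and 1 fit of all libraries kept the same 9 members called over Ctr in both comparisons, and none in DNase against Lpr.

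With a library left out, the members called over Ctr numbered 7 to 9 in Lpr and 9 to 9 in DNase, and 0 in DNase against Lpr. The direction between DNase and Lpr turned for Ifng, Cst7, Prf1 and Tbx21. On log2(FPKM + 1) Ifng moved to 0.00703. With a library left out, Ifng ranged from -0.24 to 0.21, Cst7 from -0.24 to 0.20, Prf1 from -0.93 to 0.00332, Tbx21 from -0.38 to 0.29 and, between DNase and Ctr, Gzmm from -0.70 to 0.50. The cause was not tested.

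Deviations of kidneys with the same replicate number had correlations from -0.28 to 0.16, and those with different numbers from -0.29 to 0.37. Whether the numbers pair mice cannot be told from so few kidneys. With the replicate block, 9, 0 and 9 members were called in Lpr vs Ctr, DNase vs Lpr and DNase vs Ctr, the members with p under 0.05 between DNase and Lpr went from 3 to 1, and Cst7 moved to -0.00381. In Ctr the members had 1 to 42 counts per kidney, which limits the precision of each change over Ctr.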
